A study of Arabidopsis thaliana with 8 samples.

Results

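NRPB9A and NRPB9B are the 2 Arabidopsis thaliana genes for subunit 9 of RNA polymerase II, and IMP4 encodes a protein of ribosome assembly. Each is represented on the ATH1 array by 1 probe set that the platform annotation pairs with that gene alone, which makes 3 of the 13513 probe sets naming 1 gene. They are 257929_at for NRPB9A (AT3G16980), 245367_at for NRPB9B (AT4G16265) and 260323_at for IMP4 (AT1G63780). The 3 genes were picked because earlier results on these arrays had shown them higher in the E2Fa-Dpa seedlings. Their difference between the groups is therefore given as a description with no test. The 10 other probe sets with a single symbol starting NRPA, NRPB, NRPC, NRPD or NRPE serve as reference polymerase subunits and were tested.

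The series set 4 arrays of whole seedlings labelled E2Fa-Dpa against 4 arrays of seedlings labelled wildtype, and its title names E2F target genes. Both groups are of the Col-0 accession and were grown on agar. Harvest took place 8 days from sowing, at 6 days from germination. E2Fa and DPa form a transcription factor dimer, and no label tells by what means, or from how many lines, the E2Fa-Dpa plants were derived, or whether plants were pooled. E2FA and DPA have no single-gene probe set in the annotation, so the levels of both were not checked.

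RNA polymerase II transcribes protein-coding genes, and its ninth subunit is a small zinc-binding protein. In yeast the ninth subunit helps the enzyme to select start sites, to proofread and to resume after pauses. Plants also have polymerases IV and V, which make the RNAs of RNA-directed DNA methylation and share small subunits with polymerase II, and RefSeq lists NRPD9 and NRPE9 names for both genes. In yeast Imp4 works with Imp3 and Mpp10 and the U3 small nucleolar RNA to process the precursor of the small ribosomal subunit, and it belongs to the Brix domain family of assembly factors. E2F factors are best known for activating genes of DNA synthesis.

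Values are MAS5 signals, linear intensities that the authors scaled on each array. Differences are on the log2(signal + 16) scale, E2Fa-Dpa minus wildtype, and are compressed where signals are dim. The fit, limma over all 22746 probe sets of plant genes with Benjamini-Hochberg adjustment, called 992 probe sets higher (4.36%) and 669 lower (2.94%) at an adjusted p under 0.05. With each array centred on its median it called 781 higher and 1080 lower. No label says that samples of a group were grown apart, so the p-values reflect only how these 4 samples of a group vary, which may be technical. Control RNAs from Bacillus gave signal on E2Fa-Dpa replicates 1 and 4 and wildtype replicates 3 and 4 and next to none on the other 4 arrays. Within each group the 2 arrays of such a set resemble each other most (correlations of 0.9743 to 0.9941 across probe sets). Whether those 2 arrays share an RNA is not stated. If they do, each group holds 2 samples, and the fits that use the array set take their error from repeat arrays. Of 7 measured cell type markers, the root gene PYK10 fell by 0.59 on the log2 scale (adjusted p = 0.0329), a call kept in 2 of 8 fits with 1 array left out, those without wildtype replicate 2 or 3. The other 6 markers did not pass. Of these the stomatal lineage gene SPCH had 36.7 to 44.0 in E2Fa-Dpa and 14.0 to 34.0 in wildtype, with no overlap and a difference of 0.50 (adjusted p = 0.104, and 0.0383 when blocked on array set). The meristem and stomatal genes CLV3 and MUTE had signals under 10 on all arrays. The summed marker signal was 2652 to 2949 in E2Fa-Dpa and 3640 to 4772 in wildtype, and 164.2 to 221.8 against 161.7 to 220.2 without PYK10. The part of this in the differences between the groups was not tested. In whole seedlings fewer cells of a type and less RNA per cell cannot be told apart.

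All 3 genes had higher signals in E2Fa-Dpa than in wildtype on every array, and the size of the difference varied among them. The mean signal of NRPB9A was 5.86 times that of wildtype, that of NRPB9B 2.69 times and that of IMP4 1.44 times. All E2Fa-Dpa values lay above all wildtype values for 3 of 3 genes. Over all probe sets this holds for 9.53%, and nothing is read from the count here because the genes were picked from this comparison.

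NRPB9A, in E2Fa-Dpa replicates 1 to 4, had signals of 54.0, 28.1, 60.0 and 60.5, against 9.88, 10.8, 6.19 and 7.67 in wildtype replicates 1 to 4. The wildtype arrays were all dim and close together, and among the E2Fa-Dpa arrays replicate 2 stood below the other 3, yet above every wildtype array. The means were 50.7 ± 15.3 in E2Fa-Dpa and 8.64 ± 2.1 in wildtype (SD, n = 4 each). All 4 wildtype signals lie under 16, a range that holds 30.3% to 35.7% of probe sets on an array, and no detection calls were given in the sources used here. Whether NRPB9A was detected in wildtype seedlings cannot be read from these values, and the ratio of 5.86 depends on them. The difference was 1.41 ± 0.190 on the log2(signal + 16) scale (SE). It moved to 2.07 with an offset of 4 and to 0.65 with an offset of 64, so its size, though not its direction, depends on how dim signals are treated. Without E2Fa-Dpa replicate 2 it was 1.59.

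The paralogue NRPB9B was measured well above an intensity of 16 on every array. E2Fa-Dpa replicates 1 to 4 gave 153.5, 95.9, 103.7 and 152.6, against 52.2, 47.8, 29.3 and 58.8 in wildtype replicates 1 to 4. The highest wildtype array stayed below the lowest E2Fa-Dpa array. In E2Fa-Dpa both arrays that carry control RNA signal, replicates 1 and 4, were higher than both others. The means were 126.4 ± 30.9 in E2Fa-Dpa and 47.0 ± 12.7 in wildtype (SD, n = 4 each), a difference of 1.17 ± 0.206 on the log2(signal + 16) scale (SE).

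IMP4 showed the smallest difference of the 3 and, on the log2 scale, the least spread within groups (SD 0.106, against 0.281 for NRPB9A and 0.317 for NRPB9B). Picking a gene with a small difference between the groups favours a small spread, so the spread is not read as a trait of IMP4. Its signals were 174.5, 153.3, 190.1 and 181.0 in E2Fa-Dpa replicates 1 to 4 and 119.5, 128.1, 111.1 and 128.1 in wildtype replicates 1 to 4. The gap between the groups, from 153.3 down to 128.1, was wider than the range within wildtype and narrower than the range within E2Fa-Dpa. The means were 174.7 ± 15.7 in E2Fa-Dpa and 121.7 ± 8.17 in wildtype (SD, n = 4 each), and the difference was 0.47 ± 0.112 on the log2(signal + 16) scale (SE).

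**Figure D1:**
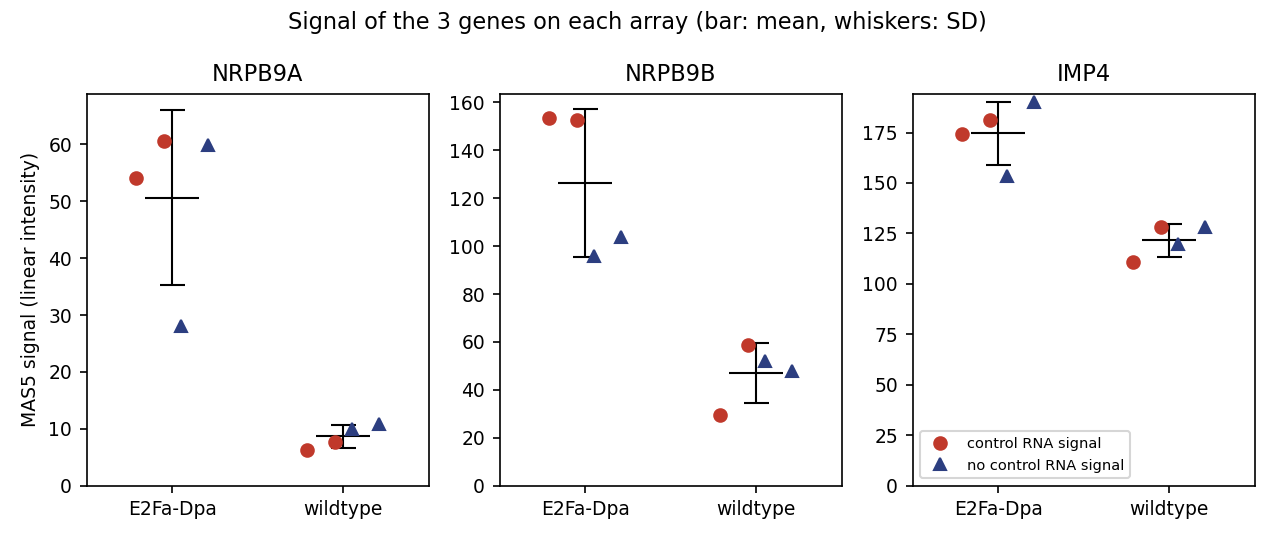
MAS5 signal (linear intensity, y axis from 0) of NRPB9A, NRPB9B and IMP4 in 4 E2Fa-Dpa and 4 wildtype arrays. Points are arrays, circles those with control RNA signal and triangles those without, and the bar and whiskers are the mean and SD. For each gene all E2Fa-Dpa points lie above all wildtype points, and E2Fa-Dpa replicate 2 is the low NRPB9A point at 28.1.

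The difference between groups was also computed within each array set, as a pair of arrays against a pair. The mean of these values is the difference the genes were picked on, and with no overlap between the groups their sign was fixed, so only their size is described. For NRPB9A it was 1.67 within the arrays with control RNA signal and 1.14 within those without. For NRPB9B it was 1.54 within the arrays with control RNA signal and 0.81 within those without, and for IMP4 0.52 and 0.42 in that order of sets. The test of whether the difference itself differs between the sets gave 0.54 ± 0.334 for NRPB9A, 0.73 ± 0.306 for NRPB9B and 0.10 ± 0.190 for IMP4 on the log2 scale (SE; limma, adjusted p = 0.585, 0.419 and 0.893). None of the 3 passed, and across all probe sets 0.0835% did.

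The direct difference between the array sets, with the group in the model, was tested for the same genes. Arrays with control RNA signal minus arrays without gave 0.07 for NRPB9A (95% interval -0.35 to 0.48, limma adjusted p = 0.81), 0.18 for NRPB9B (-0.25 to 0.62, adjusted p = 0.509) and 0.003 for IMP4 (-0.22 to 0.22, adjusted p = 0.985). None passed, while 26.3% of all probe sets differed between the sets, 9.73% being higher and 16.5% lower in the arrays with control RNA signal. The genes were picked as higher in E2Fa-Dpa on these same arrays, and each group holds both sets. Such a pick favours genes with a small set difference, so nothing is read from the lack of calls. The NRPB9B value rested on wildtype replicate 3, its dimmest array. Without that array the difference was 0.40 (adjusted p = 0.0237), so the gene then counted as higher in the arrays with control RNA signal. The other 13 alternatives run for this difference of NRPB9B gave no call.

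Several reference polymerase subunits did differ between the array sets. NRPB6A and NRPB6B, paralogous genes for a small subunit common to several nuclear polymerases, exceeded 0 in this contrast by 1.13 (95% interval 0.88 to 1.38, adjusted p = 0.000615) and 0.65 (0.42 to 0.89, adjusted p = 0.00369). NRPB12, another small common subunit, was higher by 0.52 (adjusted p = 0.0265), and NRPB7, which with subunit 4 forms the stalk of polymerase II, by 0.54 (adjusted p = 0.0301). The other 6, NRPD7, NRPE7, NRPC1, NRPC2, NRPA1 and NRPA2, lay between -0.15 and 0.40 and did not pass. Of the 10 reference subunits, 4 were called higher in these arrays and 0 lower. The intervals of NRPB9A, NRPB9B and IMP4 lie wholly below that of NRPB6A. A difference between genes in this respect was not tested, and the way these genes were picked favours small values.

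**Figure D2:**
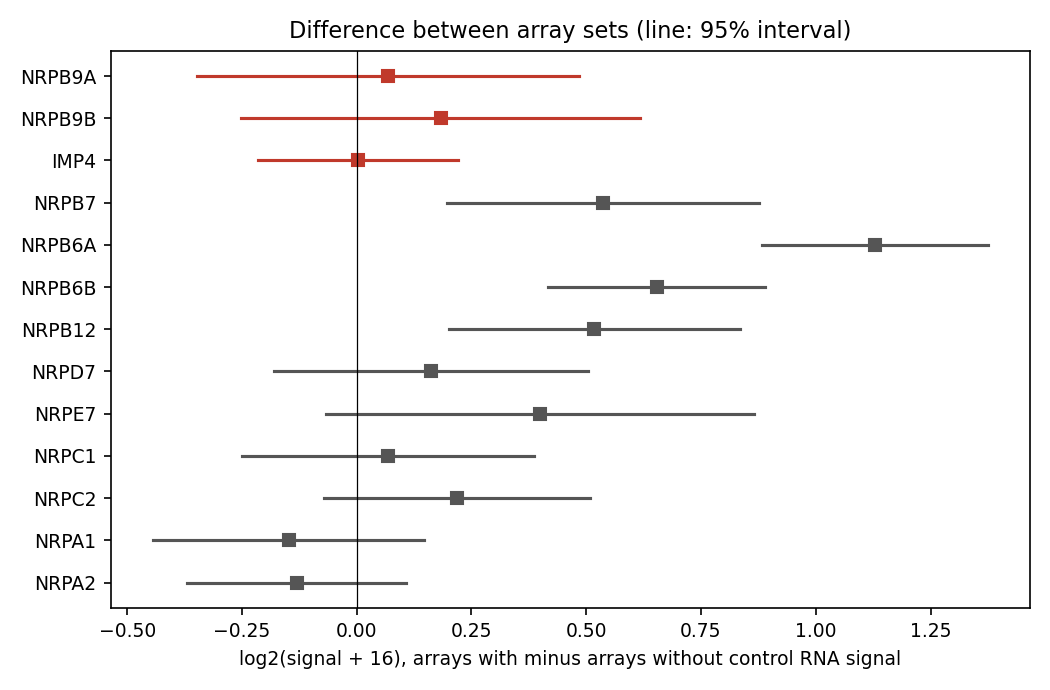
Difference in log2(signal + 16) between arrays with and arrays without control RNA signal (x axis) for NRPB9A, NRPB9B and IMP4 (red) and the 10 reference polymerase subunits (grey). Squares are estimates with the group in the model, n = 4 arrays per set, and lines are 95% intervals. The intervals of the red genes cover 0, while those of NRPB7, NRPB6A, NRPB6B and NRPB12 lie above it.

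Between E2Fa-Dpa and wildtype, none of the 10 reference subunits passed limma's test over all probe sets, while 4.36% of all probe sets were called higher. At an unadjusted p under 0.05 there were 4 of 10, beside 23.3% of all probe sets. Their differences ran from -0.31 to 0.69 with a median of 0.47, and 9 of 10 were above 0, beside a median of 0.004 over all probe sets. With the array set as a block, 6 of 10 were called higher and 0 lower, against 11.7% and 9.77% of all probe sets. With each close pair treated as a random effect, whose correlation is estimated, 0 of 10 were called (lowest adjusted p = 0.283), and 0 of 10 with each pair averaged (lowest adjusted p = 0.558). Of all 22746 probe sets the random effect fit called 348 higher and 106 lower, and the averaged fit 2 and 0. With so few calls anywhere, nothing is read from 0 of 10 in these fits. The 6 called with the array set as a block were NRPB7, NRPB6A, NRPB6B, NRPB12, NRPD7 and NRPC1. Within the arrays with control RNA signal 3 of 10 were called higher and 0 lower (3.75% and 2.95% of all probe sets), and within those without it 0 of 10 either way (5.51% and 5.14%).

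Among the reference subunits of polymerase II and those it shares, NRPB7 had signals of 145.7, 77.8, 69.8 and 145.7 in E2Fa-Dpa replicates 1 to 4, against 51.8, 54.4, 54.4 and 76.4 in wildtype replicates 1 to 4. Wildtype replicate 4 overlapped the E2Fa-Dpa range, and the difference was 0.69 ± 0.237 (SE, limma adjusted p = 0.115, and 0.0128 in the fit blocked on array set). NRPB12 had 330.1, 158.9, 214.4 and 297.3 in E2Fa-Dpa and 132.6, 130.1, 143.3 and 196.4 in wildtype, so that the groups overlapped through wildtype replicate 4. Its difference was 0.64 ± 0.224 (adjusted p = 0.122, and 0.0128 with the block). NRPB6A and NRPB6B had 0.58 ± 0.387 and 0.39 ± 0.243 (adjusted p = 0.418 and 0.38), and both passed with the block (0.00661 and 0.0284).

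Subunits that belong to a single other polymerase had differences from -0.31 for NRPA1 to 0.54 for NRPC1. NRPD7, the subunit 7 of polymerase IV, gave 30.9, 27.4, 31.9 and 27.1 in E2Fa-Dpa replicates 1 to 4 and 17.1, 7.55, 15.1 and 24.3 in wildtype. The groups did not overlap, although all values are low, and the difference was 0.53 ± 0.166 (SE, limma adjusted p = 0.0924, and 0.0375 with the block). NRPE7, its polymerase V counterpart, had 0.41 ± 0.248 (adjusted p = 0.372, and 0.198 with the block). NRPC1, the largest subunit of polymerase III, which makes transfer RNA and 5S ribosomal RNA, gave 54.1, 34.2, 44.3 and 48.6 in E2Fa-Dpa and 34.1, 22.8, 23.4 and 23.9 in wildtype. Here too the groups did not overlap, narrowly, through wildtype replicate 1, and the difference was 0.54 ± 0.153 (adjusted p = 0.0661, and 0.0261 with the block). NRPC1 and NRPD7 are the 2 of 10 reference subunits with no overlap, beside 9.53% of all probe sets with every E2Fa-Dpa array higher.

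NRPC2, the second largest subunit of polymerase III, gave 63.3, 51.2, 53.1 and 88.4 in E2Fa-Dpa replicates 1 to 4 and 48.6, 49.7, 48.4 and 52.0 in wildtype, a difference of 0.26 ± 0.158 (SE, limma adjusted p = 0.368). The wildtype arrays were nearly equal and E2Fa-Dpa replicate 4 was the high one. NRPA1 and NRPA2 are the 2 large subunits of polymerase I, the enzyme of the large ribosomal RNA precursor. NRPA1 was the only reference subunit with a difference below 0, at -0.31 ± 0.151 (adjusted p = 0.266), with 42.2, 40.7, 52.3 and 44.1 in E2Fa-Dpa and 57.6, 73.1, 44.2 and 64.03 in wildtype. NRPA2 had 0.13 ± 0.127 (adjusted p = 0.591), and neither gene passed with the block (0.131 and 0.411).

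Calls of single reference subunits also depended on single arrays. Without E2Fa-Dpa replicate 2, NRPC1 and NRPB12 passed (adjusted p = 0.0453 and 0.0403), and without wildtype replicate 4 NRPD7 did (0.0464). NRPB9A and NRPB9B had larger differences than each of the 10, and IMP4 lay within their range, which is a description since the first 3 were picked from this comparison.

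**Figure D3:**
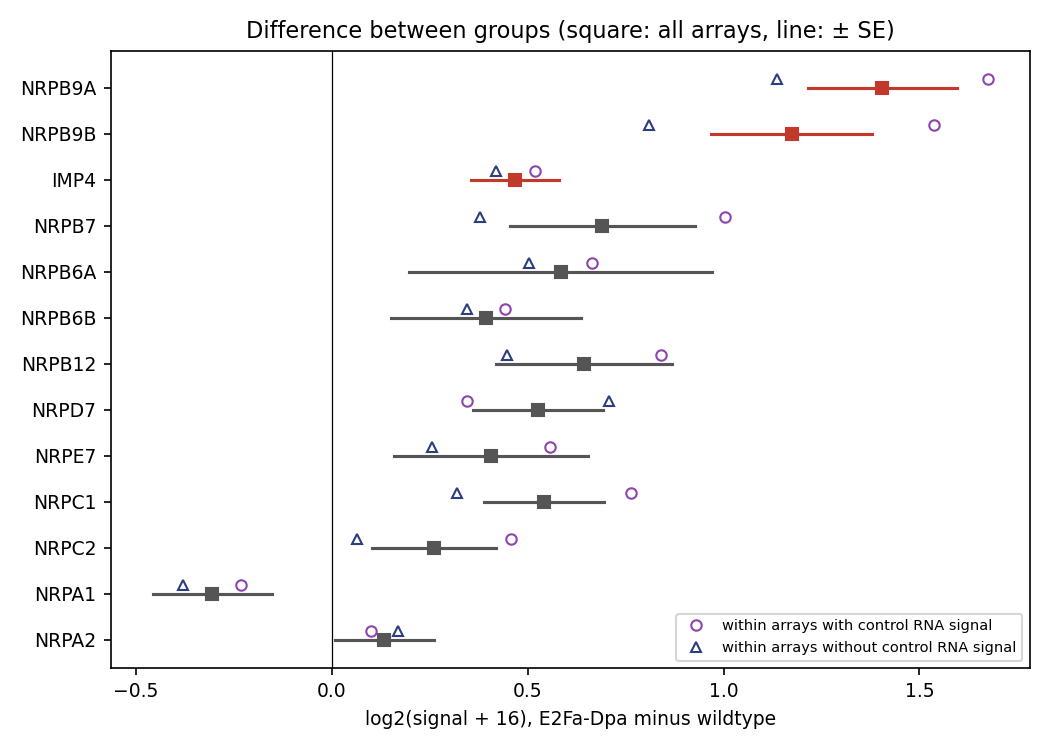
Difference in log2(signal + 16), E2Fa-Dpa minus wildtype (x axis), for NRPB9A, NRPB9B and IMP4 (red) and the 10 reference polymerase subunits (grey). Squares are the fit to all 8 arrays with lines for ± SE, and open circles and triangles are the differences within the arrays with and without control RNA signal. NRPB9A and NRPB9B lie at 1.41 and 1.17, and the reference subunits between -0.31 and 0.69.

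For IMP4, a list of 47 other ribosome assembly genes was written from known functions, and 22 of them had a probe set naming 1 gene. All 22 had a difference above 0, from 0.09 to 0.85 with a median of 0.37, beside a median of 0.004 over all probe sets. Of the 22, 1 passed the test as higher and 0 as lower, beside 4.36% and 2.94% of all probe sets. With the array set as a block 10 of 22 were called higher, beside 11.7% of all probe sets in that fit. With an estimated correlation between the arrays of a close pair 0 of 22 were called (lowest adjusted p = 0.232), and 0 of 22 with each pair averaged (lowest adjusted p = 0.508). Over all 22746 probe sets the first of these fits called 348 higher and 106 lower, and the second 2 and 0. Nothing is therefore read from 0 of 22 in either fit.

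The gene that passed was RRP41, a core subunit of the exosome, which trims RNA from its 3' end. It gave 121.6, 103.2, 126.5 and 116.7 in E2Fa-Dpa replicates 1 to 4 and 90.1, 84.9, 73.5 and 74.9 in wildtype, with no overlap. Its difference was 0.46 ± 0.118 (SE, limma adjusted p = 0.0486). The call sat at the threshold and was lost in each of the 8 fits that left out 1 array (adjusted p = 0.0514 to 0.143), and also with median centring (0.0777), quantile scaling (0.0766) and cyclic loess (0.101). RRP41L, its paralogue, had signals of 71.0, 47.2, 75.4 and 56.5 in E2Fa-Dpa and 40.1, 34.0, 24.8 and 42.4 in wildtype, again with no overlap, and a difference of 0.61 ± 0.173 (adjusted p = 0.0662, and 0.0293 with the block). RRP41 and RRP41L are the 2 of 22 list genes with no overlap. Every E2Fa-Dpa array was higher for 9.53% of all probe sets, so the count is near that share.

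RPF2, like IMP4 a Brix domain protein but of the large ribosomal subunit, had the largest difference of the list. Its signals were 332.9, 166.7, 217.3 and 319.0 in E2Fa-Dpa replicates 1 to 4 and 111.6, 89.5, 131.9 and 218.5 in wildtype, and the groups overlapped. The difference was 0.85 ± 0.280 (SE, limma adjusted p = 0.102, and 0.00568 with the block). YAO, a WD40 protein of the U3 particle, had 0.46 ± 0.151 (adjusted p = 0.105, and 0.0291 with the block). BRX1-1 and BRX1-2, paralogous Brix domain genes named after their values were seen, had 0.37 ± 0.252 and 0.54 ± 0.247 (adjusted p = 0.432 and 0.23).

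IMP3 and MPP10, whose yeast counterparts bind Imp4, fall outside the rule for named genes and are given for that role. IMP3 gave 309.3, 135.5, 183.9 and 274.5 in E2Fa-Dpa replicates 1 to 4 and 114.9, 116.4, 145.1 and 233.1 in wildtype. The groups overlapped, and the difference was 0.51 ± 0.282 (SE, limma adjusted p = 0.32, and 0.043 with the block). MPP10 gave 44.2 to 55.5 in E2Fa-Dpa and 32.9 to 52.4 in wildtype, with a difference of 0.17 ± 0.145 (adjusted p = 0.545, and 0.408 with the block). The estimates for IMP4 and IMP3 are of like size. IMP4 was picked from this comparison, which favours a small spread, and the spread of IMP3 within groups was the wider one.

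That spread went with the array set. IMP3 was higher in the arrays with control RNA signal by 0.71 (95% interval 0.37 to 1.06, limma adjusted p = 0.0111). MPP10 had 0.02 (adjusted p = 0.929), and IMP4, whose pick favours a small set difference, had 0.003. In the list 10 of 22 genes were called higher in these arrays and 0 lower, beside 9.73% and 16.5% of all probe sets. By role, they were 4 of 7 measured genes of the small subunit processome, 6 of 10 of the large subunit and helicase group, 0 of 3 of the small nucleolar RNP proteins and 0 of 2 of the trimming enzymes. Within either array set, 21 of the 22 list genes had a difference between E2Fa-Dpa and wildtype above 0.

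**Figure D4:**
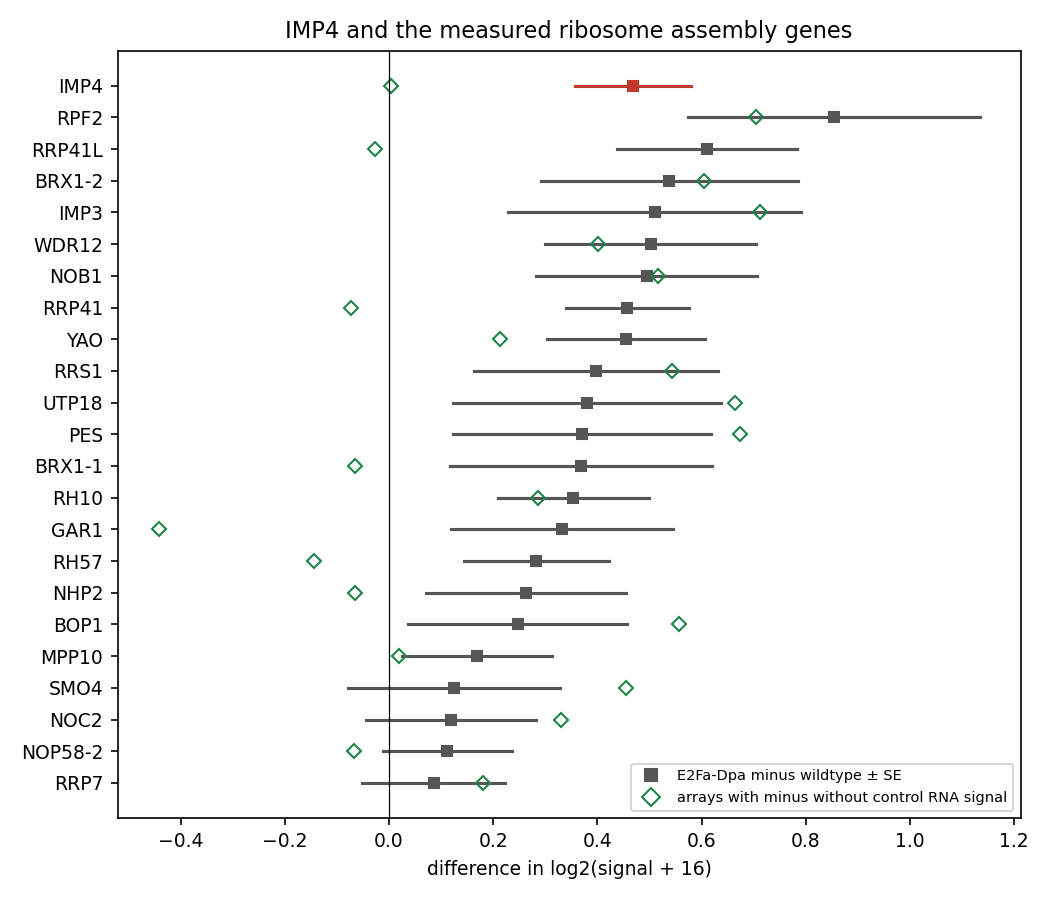
Differences in log2(signal + 16) (x axis) for IMP4 (red, top) and the 22 measured genes of the ribosome assembly list, ordered by size. Squares with lines are E2Fa-Dpa minus wildtype ± SE (n = 4 each), and open diamonds are arrays with minus arrays without control RNA signal. All squares lie above 0, and the diamonds spread from -0.44 for GAR1 to 0.71 for IMP3.

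Partners of the polymerases were thinly covered. Of 14 listed partners of polymerase II only the elongation factor gene SPT4-1 was measured, at -0.08 ± 0.128 (SE, limma adjusted p = 0.767). Of 12 listed genes of RNA-directed DNA methylation only CLSY3, a chromatin remodelling gene that recruits polymerase IV, was measured, by 2 probe sets. Their differences were 2.58 ± 0.138 for 263204_at and 0.92 ± 0.141 for 263203_at, and all 4 E2Fa-Dpa values lay above all wildtype values for both (limma, adjusted p = 3.02e-05 and 0.00553). Both calls held in 8 of 8 fits that left out 1 array. Wildtype signals were 0.281 to 5.83 for 263204_at and 0.661 to 9.28 for 263203_at, against 87.8 to 110.6 and 20.2 to 25.3 in E2Fa-Dpa. All wildtype values lie under 16, so detection in wildtype cannot be read from them and the sizes depend on the offset. CLSY3 was listed with earlier results of these data known, so its calls are no independent support.

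The genes next to each of the 3 on the chromosome were looked up in the RefSeq gene table. NRPB9A is flanked by AT3G16970 and by AT3G16990, whose gene model overlaps its own. AT3G16990 had signals of 41.0 to 66.9 in E2Fa-Dpa and 41.2 to 59.6 in wildtype, a difference of 0.13 (95% interval -0.22 to 0.48, limma adjusted p = 0.678), and AT3G16970 was dim in both groups, at 0.19 ± 0.134 (SE). NRPB9B is flanked by AT4G16260, a glycosyl hydrolase gene, which moved the other way. AT4G16260 gave 195.9, 231.2, 140.9 and 182.7 in E2Fa-Dpa replicates 1 to 4, against 361.5, 348.9, 1599 and 901.5 in wildtype, and fell by 1.74 on the log2 scale (SE 0.440, adjusted p = 0.045). The call held in 3 of 8 fits that left out 1 array (adjusted p = 0.0377 to 0.116) and was lost without wildtype replicate 4 or any one E2Fa-Dpa array. Wildtype replicates 3 and 4, the pair with control RNA signal, were the highest. On the other side AT4G16270 was under a signal of 16 on all arrays, with -0.30 ± 0.101 (adjusted p = 0.109, and 0.0239 with the block), and all its E2Fa-Dpa values lay below all wildtype values. Upstream in the table from IMP4, AT1G63770 had -0.03 ± 0.129 (adjusted p = 0.928), and the gene on its other side, UBC5, has no probe set of its own in the annotation used here.

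Profiles over the 8 arrays were compared by the root mean square difference between centred log2(signal + 16) values, among the probe sets naming 1 gene. Nearest to NRPB9A was FANCM, a DNA helicase gene of crossover control and repair, at 0.121, then AT2G03410 at 0.155 and AT3G15260 at 0.156, beside a median of 0.767 over all. Nearest to NRPB9B were AT1G67820 at 0.0849, AT3G54750 at 0.0994 and AT2G37470, a histone H2B gene, at 0.106, beside a median of 0.678. For IMP4 they were AT3G26922 at 0.0572, AT5G65685 at 0.0609 and AT2G31240 at 0.0626, beside a median of 0.325. All of these 9 genes had higher mean signals in E2Fa-Dpa than in wildtype, since the profile includes the difference between the groups. The wildtype mean was 9.12 for AT3G26922, 2.67 for AT2G03410 and 15.2 for FANCM. These means lie under 16, so the distances of these genes depend on the offset. The paralogues were not each other's nearest. NRPB9A ranked 83rd among the 13512 probe sets compared with NRPB9B, at 0.275, and IMP4 ranked 575th, at 0.425.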

How the data were processed

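The deposited values are intensities, 1 per probe set and array on a linear scale, made by the authors with MAS5 per the submitters' processing notes, with no version given. The scaling target and a build are not given in the sources used here. Of 22810 probe sets, 64 manufacturer's controls were left out. Signals were taken as log2(signal + 16) and compared by lmFit and eBayes with trend, with no covariate (limma 3.58.1, R 4.3.3; figures by Python 3.11.15 and matplotlib 3.10.9), using Benjamini-Hochberg adjustment over 22746 probe sets and a threshold of 0.05. In simulated data with 22746 probe sets, the group comparison found 65 of 100 true 2-fold changes and 96 of 100 true 4-fold ones and made 8 false calls. The array set comparison found 94 and 100 of 100 and made 11 false calls. Changes were planted only in probe sets with a mean signal over 50, a range that leaves out NRPB9A. Noise was drawn independently for each array, without the close pairs of the real arrays. The counts of changes found and of false calls therefore do not carry over to these data. No change under 2-fold was planted, and the ratio of mean signals of IMP4 was 1.44. Alternatives were other offsets, scalings, a signal filter, blocks and single arrays left out.

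The array sets were split at the widest gap in the mean of 27 Bacillus control probe sets. Names came from the platform annotation (13513 probe sets with 1 gene, 503 with several, 8730 unlisted). Of the 13513, 13436 matched RefSeq TAIR10.1, used for names and neighbours. The members, lists and tests were chosen with earlier results of these data known. The text names the 3 genes, all reference subunits (the 6 with the smallest p in full), the 4 smallest p of each list, the 3 nearest profiles and the neighbours. Replicate numbers did not pair samples: deviations of same-numbered arrays correlated at -0.519, 0.443, -0.359 and 0.526. The planned search of promoters for motifs was not run, as no sequence was used here. The number of arrays limits the precision.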

Additional observations from a re-analysis of the deposited data

Results flagged for a closer look

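In 5 of 100 groups of 4 arrays (50 probe sets in 2 groups), the lowest or highest array stood apart from the other 3 by Dixon's criterion, which chance alone meets in about 1 of 20 groups. For NRPB9A this was E2Fa-Dpa replicate 2, with a signal of 28.1 against 54.0 to 60.5 on the other 3. For NRPC1 wildtype replicate 1 stood high, with 34.1, and for NRPB7 wildtype replicate 4, with 76.4. In the ribosome assembly list NHP2 was low in E2Fa-Dpa replicate 2, with 139.0, and SMO4 high in wildtype replicate 4, with 176.7. The causes were not tested.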

How the results depend on the processing

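The difference between E2Fa-Dpa and wildtype kept its sign for NRPB9A, NRPB9B and IMP4 under every alternative run. With no overlap between the groups, another offset, an array left out or a split by array set could not change it. The blocks leave the difference itself unchanged, so the kept sign is no support. NRPB9A had 2.07 with an offset of 4 and 0.65 with an offset of 64, and fell out under the filter at a mean signal of 50. NRPB9B had 0.77 and IMP4 0.36 with an offset of 64, and NRPB9B had 0.81 within the arrays without control RNA signal and 1.54 within those with it. Over single arrays left out, the 3 ranged from 1.33 to 1.59, 1.02 to 1.28 and 0.43 to 0.52. Their array set differences then ranged from -0.14 to 0.17 (NRPB9A), 0.091 to 0.40 (NRPB9B) and -0.064 to 0.050 (IMP4).

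Reference subunits called higher were 0, with 0 to 2 over single arrays left out, 6 with the array set as a block and 3 within the arrays with control RNA signal, and 0 were lower throughout. With the replicate block, close pairs as a random block and close pairs averaged 0 were called. Each replicate number occurs once in each group, so the replicate block cannot change a difference, and those of the 3 genes were again 1.41, 1.17 and 0.47. The ribosome list had 1 higher, with 0 to 2 over single arrays left out, 10 with the array set as a block, 2 within the arrays without control RNA signal and 0 within those with it, and 0 with median centring, quantile scaling, cyclic loess, the replicate block, close pairs as a random block and close pairs averaged. That averaging, and the alternatives of this list other than quantile scaling and the array set block, were chosen after seeing the data. Over all probe sets 476 to 934 were higher and 198 to 763 lower without 1 array. The replicate block, whose numbers do not pair samples, gave 549 and 305, the array set block 2653 and 2223, close pairs as a random block 348 and 106, and close pairs averaged 2 and 0. Lower calls were 1080 with median centring and 1170 within the arrays without control RNA signal. The causes were not tested.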
